A study of Mus musculus with 8 samples.

Results

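The genes described here are 31 genes of the cholesterol pathway. Of these, 19 are listed as synthesis genes, including Ggps1, whose enzyme branches off the sterol route. Another 4 control the transcription factor SREBP2, and 4 move or store cholesterol inside the cell. The last 4 belong to the arm of the liver X receptors (LXR): the exporters Abca1 and Abcg1, the receptor gene Nr1h2, and Mylip. All 31 were chosen by name, as genes of these steps, out of 55536 genes in the count tables, with earlier results of these data known. Of the 31, 30 were among the 11189 genes expressed highly enough to be tested. mRNA was sequenced from OT-1 CD8+ T cells in 2 groups of 4 libraries, labelled Mock and GC7. The cells came from lymph nodes of C57BL/6 mice aged 5 to 12 weeks that carried the OT-1 T cell receptor transgene on a Rag-1KO background, so that both groups lacked RAG1 and held T cells of a single specificity, for the ovalbumin peptide SIINFEKL. Donors carried the CD45.1 or the CD45.2 congenic allele, and the labels do not say which library came from which donor. All cells were activated with 100 nM SIINFEKL for 2 days and then grown for 2 days in 20 ng/mL recombinant human IL-2. During the IL-2 days the GC7 group received 10 µM GC7, a spermidine analogue that blocks deoxyhypusine synthase and so prevents hypusination of the translation factor eIF5a, and the Mock group received the acetic acid vehicle. The comparison asks how the mRNAs of the sterol pathway differ between cells given GC7 and cells given vehicle. Effects of GC7 through eIF5a and apart from it cannot be told apart in these groups.

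Cells obtain cholesterol by building it from acetyl-CoA through mevalonate, squalene and lanosterol, or by taking up lipoproteins. When sterols in the endoplasmic reticulum are low, SCAP escorts SREBP2 to the Golgi apparatus, where it is cut, and the released part enters the nucleus and raises transcription of synthesis and uptake genes through sterol regulatory elements, usually beside binding sites for NF-Y and Sp1. When sterols are plentiful the INSIG proteins hold SCAP back, and oxidised sterols switch on LXR, which raises cholesterol export. Activated T cells are known to increase sterol synthesis as they build membrane for division.

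Of the members whose promoters are shown, Hmgcs1 and Mvd stand for early synthesis genes that were reduced, and Insig1 for the most strongly reduced control gene. Ggps1 stands for the synthesis gene that was not called, and Abca1 is an exporter whose counts were too low for testing. The promoters of these 5 members follow. Each is the stretch of 250 bases before the transcription start in RefSeq (build GRCm38.p6), read 5′ to 3′ on the gene's own strand, with matches to the sterol regulatory element core TCACNCCAC and to the CCAAT box (the letters CCAAT, or ATTGG on the other strand) in capitals.
Hmgcs1 (chr13:119690101-119690350, plus strand): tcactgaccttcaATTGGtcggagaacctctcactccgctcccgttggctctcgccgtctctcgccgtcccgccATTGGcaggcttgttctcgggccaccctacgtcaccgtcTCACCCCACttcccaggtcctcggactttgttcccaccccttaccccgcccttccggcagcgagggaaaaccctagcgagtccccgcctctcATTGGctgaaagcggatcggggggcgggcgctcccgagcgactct
Insig1 (chr5:28071162-28071411, plus strand): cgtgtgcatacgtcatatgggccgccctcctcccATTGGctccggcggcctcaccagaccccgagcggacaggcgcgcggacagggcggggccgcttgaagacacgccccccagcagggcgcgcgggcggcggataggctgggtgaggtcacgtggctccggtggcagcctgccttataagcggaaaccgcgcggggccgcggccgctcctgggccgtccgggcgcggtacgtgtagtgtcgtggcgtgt
Mvd (chr8:122443423-122443672, minus strand): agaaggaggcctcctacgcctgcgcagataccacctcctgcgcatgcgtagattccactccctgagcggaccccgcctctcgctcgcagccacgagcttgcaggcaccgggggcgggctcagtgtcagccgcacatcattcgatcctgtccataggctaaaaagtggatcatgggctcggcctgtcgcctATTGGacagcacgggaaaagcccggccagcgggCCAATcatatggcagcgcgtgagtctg
Ggps1 (chr13:14063489-14063738, minus strand): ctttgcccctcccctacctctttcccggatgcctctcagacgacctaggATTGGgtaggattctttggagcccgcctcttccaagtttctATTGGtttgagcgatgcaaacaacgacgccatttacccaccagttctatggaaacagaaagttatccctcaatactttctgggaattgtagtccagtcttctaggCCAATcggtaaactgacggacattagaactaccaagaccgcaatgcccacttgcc
Abca1 (chr4:53159896-53160145, minus strand): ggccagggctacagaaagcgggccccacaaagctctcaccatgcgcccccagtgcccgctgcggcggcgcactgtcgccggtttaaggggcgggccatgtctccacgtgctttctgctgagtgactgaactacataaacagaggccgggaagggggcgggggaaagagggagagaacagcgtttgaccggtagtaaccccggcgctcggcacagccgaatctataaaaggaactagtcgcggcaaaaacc

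The window of Hmgcs1, counted to 50 bases past the start, held 1 match to the sterol regulatory element core, TCACCCCAC, at bases 137 to 129 upstream, and 4 CCAAT boxes. RefSeq windows of that length were found for 25 of the 31 members, and those of Fdps, Fdft1, Sqle, Npc1, Stard4 and Abcg1 were not in the table. Hmgcs1 was the 1 gene of the 25 with the TCACNCCAC core (4.0%, against 1.44% of all 27025 genes in the table). A shorter core, TCACNCCA, chosen after the values of the longer core were seen and contained in it, was found for 3 of 25 genes (Hmgcs1, Msmo1 and Srebf2, 12.0%, against 4.97% of all genes). The CCAAT box was found for 21 of 25 members (84.0%) and for 15 of 16 synthesis genes (93.8%, all but Acat2), against 41.1% of all genes and 43.6% of the tested genes. The GC box GGGCGG that Sp1 binds was found for 22 of 25 (88.0%, against 38.2% of all genes and 70.7% of tested genes), and the E box CACGTG for 6 of 25 (24.0%, against 8.09% and 12.2%). Both strands were searched, a gene with several windows counted once, and these are shares of letter matches. Ggps1 held 3 CCAAT boxes and Abca1 held none.

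Counts per library ranged from 17528776 to 25284730. Levels are given as CPM, the counts of a gene relative to the total of its library, scaled with TMM factors so that libraries are comparable. A change is a log2 fold change, GC7 minus Mock, with its standard error, from edgeR's quasi-likelihood test, and a gene was called lower or higher at an FDR under 0.01 over the 11189 genes. The cells' labelled identity was checked by its markers. The 5 CD8 T cell markers summed to between 2350 and 2880 CPM in Mock and between 2380 and 2560 CPM in GC7 libraries. Within that sum Cd8a was higher in GC7 (log2 fold change 0.48, edgeR FDR 3.4e-05), Cd3e (-0.23, FDR 0.00789) and Cd3g (-0.37, FDR 0.00412) were lower, and Cd8b1 (-0.18) and Cd3d (-0.27) were not called. Cd4 reached at most 0.41 CPM. Of 3 B cell markers, which summed to between 0.513 and 1.23 CPM over the 8 libraries, Ms4a1 was at 0 in all, and the 3 dendritic cell markers, of which Siglech was at 0, stayed at or under 0.451 CPM. The 2 NK cell markers stayed at or under 0.728 CPM. The sum of the 2 genes listed as stromal markers was lower in GC7 (between 30.2 and 32.1 CPM, against between 51.5 and 56.2 CPM in Mock). Nearly all of it was Pecam1, while Col1a1 was at most 0.935 CPM, so the sum is not read as a share of stromal cells. The part of these 2 genes in the results was not tested. In bulk RNA, fewer cells of a type and less RNA per cell cannot be told apart.

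Sterol pathway mRNAs were mostly lower in GC7-treated cells. Of the 30 tested members, 23 were lower (23.5% of all tested genes were), 2 were higher (23.0% of all tested genes), and 5 were not called. More than 2-fold reductions were found for 9 members (5.31% of all tested genes), 8 of them in synthesis, and more than 2-fold increases for 0 (3.17% of all tested genes). For 22 members every GC7 library lay below every Mock library (27.5% of all tested genes), for 2 every GC7 library lay above (28.1%), and for 6 the groups overlapped. The median log2 fold change was -0.76 over the tested members and 0.018 over all tested genes, of which the middle 50% lay between -0.27 and 0.31.

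**Figure D1:**
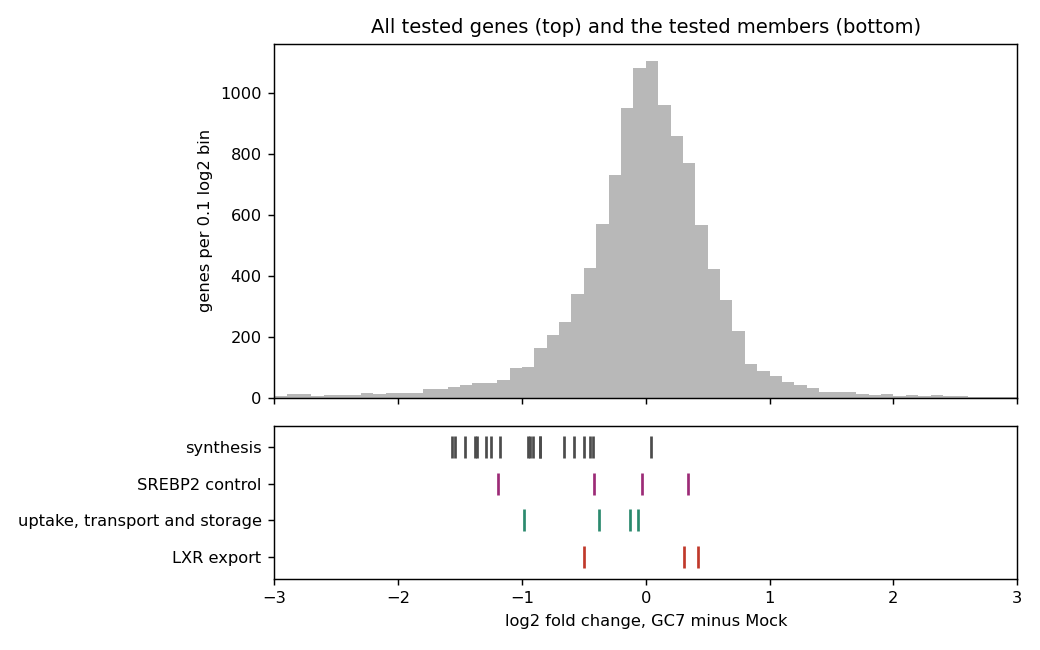
Histogram of log2 fold changes (GC7 minus Mock) of all tested genes, in bins of 0.1 (top; 11082 of 11189 genes lie within the axis), and the tested members as ticks in 4 rows (bottom). The synthesis ticks lie between -1.57 and 0.043, and 18 of 19 are left of 0.

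The 19 synthesis genes together took between 0.2284% and 0.2446% of all counts in Mock libraries and between 0.1146% and 0.131% in GC7 libraries, so the groups did not overlap. All 31 members together took between 0.3785% and 0.4128% in Mock and between 0.2433% and 0.263% in GC7.

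Of the synthesis genes, 18 of 19 were lower and none was higher, with a median log2 fold change of -0.93. The median was -1.31 over the 8 genes up to the prenyl diphosphates (7 lower) and -0.85 over the 11 from squalene on (11 lower), a difference that was not tested.

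**Figure D2:**
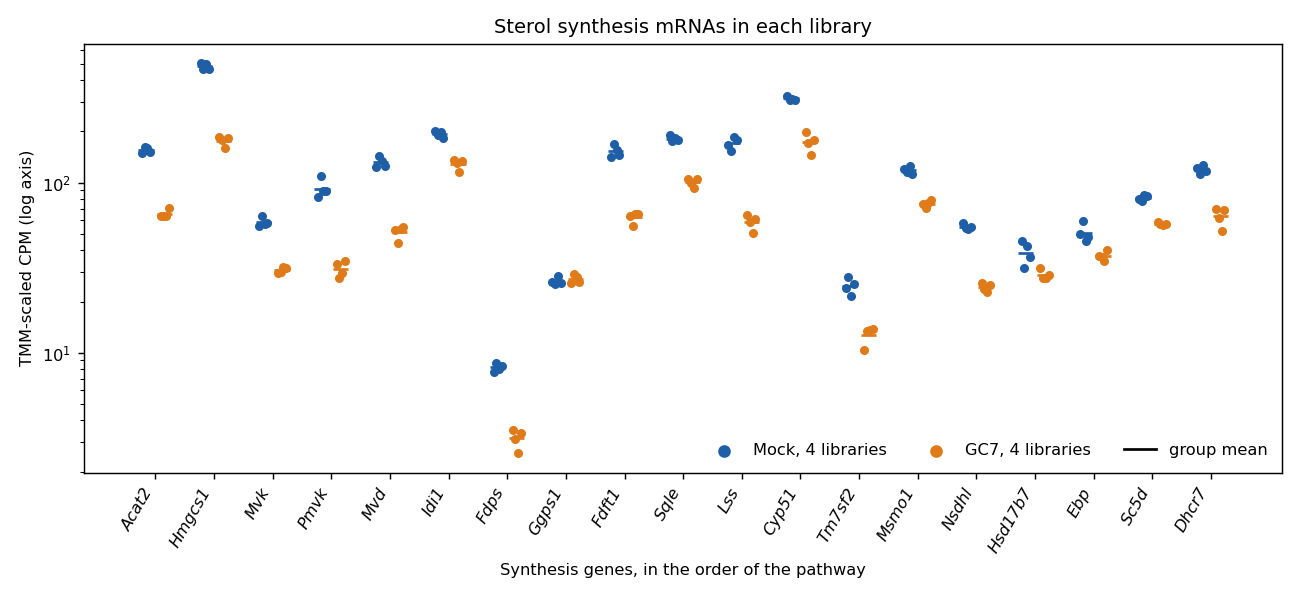
Scaled CPM (log axis) of the 19 synthesis genes in the order of the pathway, with 1 point per library (4 Mock, 4 GC7) and bars at the group means. The GC7 points lie below all Mock points for 17 genes, while those of Ggps1 and Hsd17b7 overlap.

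The pathway starts with Acat2, the cytosolic thiolase that joins acetyl-CoA units. Acat2 had 150.2, 161, 160.4 and 151 scaled CPM in the Mock libraries and 63.6, 63.3, 63.7 and 70.8 in the GC7 libraries. It was reduced to 65.3 ± 3.62 from 156 ± 5.77 CPM (SD, n = 4), a log2 fold change of -1.25 (SE 0.061, edgeR FDR 8.0e-09). All GC7 values lay under 71 CPM and all Mock values over 150. Acat2 shares 1477 bases at 97.7% identity with Acat3, and with the counts of Acat3 added the change was -1.24.

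Hmgcs1, the synthase that makes HMG-CoA, was the most abundant synthesis mRNA in Mock cells. Its gene lies on GRCm38 chr13:119690379-119708260 on the plus strand (ENSMUSG00000093930). Its Mock values were 502, 468, 495 and 469 CPM and its GC7 values 185, 177, 159 and 182 CPM. The mean fell 2.75-fold, from 484 ± 17.8 to 176 ± 11.9 CPM (log2 fold change -1.46, SE 0.066, edgeR FDR 4.6e-09). The highest GC7 value, 185 CPM, lay far below the lowest Mock value, 468 CPM.

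The kinases and the decarboxylase that convert mevalonate to isopentenyl diphosphate were all lower. Mvk, mevalonate kinase, had between 55.7 and 63.3 CPM in Mock and between 29.4 and 32 CPM in GC7 (log2 fold change -0.93, SE 0.066, edgeR FDR 2.0e-07). Pmvk, phosphomevalonate kinase, showed the strongest reduction of all members, with 81.8, 109, 89.5 and 89.4 CPM in Mock and 33.2, 27.4, 29.4 and 34.5 CPM in GC7. That is a 2.96-fold reduction (log2 fold change -1.57, SE 0.10, edgeR FDR 8.1e-08). The highest GC7 value of Pmvk, 34.5 CPM, lay far below the lowest Mock value, 81.8 CPM. Mvd, the decarboxylase, had 124, 143, 134 and 126 CPM in Mock and 53, 44.4, 53.4 and 54.7 CPM in GC7 (-1.36, SE 0.078, edgeR FDR 3.3e-08), without overlap.

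At the isoprenoid steps the members differed from each other. Idi1, the isomerase, fell from 193 ± 7.56 to 129 ± 9.26 CPM (SD, n = 4 each), a log2 fold change of -0.58 (SE 0.066, edgeR FDR 1.1e-05). Idi1 has a copy, Gm13502, with 684 bases at 100% identity, and its change with copies added was -0.57. Fdps, which makes farnesyl diphosphate, had 7.74, 8.71, 7.97 and 8.37 CPM in Mock and 3.5, 3.1, 2.57 and 3.38 CPM in GC7 (-1.38, SE 0.13, edgeR FDR 1.8e-06). Fdps has 5 near-identical copies in the annotation, of which Gm3571 (1062 bases, 98.9% identity) had between 98 and 173 counts in Mock libraries. The exons of Fdps also share 1124 bases, 26.7% of their length, with Gm43738 on the same strand. Gm43738 had mean counts of 0.2 in Mock and 0.0 in GC7 libraries. For both reasons the level of Fdps is uncertain. With the copies added it was 15.4 ± 1.98 CPM in Mock and 5.45 ± 0.757 CPM in GC7, a change of -1.49.

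Ggps1, which uses farnesyl diphosphate to make geranylgeranyl diphosphate for protein prenylation and so leaves the sterol route, was the synthesis member not called. It had 26, 25.3, 28.1 and 25.8 CPM in Mock and 25.6, 29.2, 27.7 and 25.9 CPM in GC7. The groups overlapped throughout, and the log2 fold change was 0.043 (95% interval -0.098 to 0.19, edgeR FDR 0.626). The exons of Ggps1 share 257 bases, 5.4% of their length, with Arid4b on the opposite strand. Arid4b had mean counts of 978.5 in Mock and 1082.8 in GC7 libraries, and whether its reads entered the counts of Ggps1 was not tested. Another 10 genes lie on branches from farnesyl diphosphate (prenyl transferases, dolichol and ubiquinone synthesis). Of these, 1 was lower (23.5% of all tested genes were), 2 were higher (23.0% of all tested genes) and 7 were not called. The lower gene was Rabggta, a subunit of the Rab geranylgeranyl transferase, which fell 2.01-fold, from 39.7 ± 1.49 to 19.7 ± 1.26 CPM (edgeR FDR 1.8e-07). The higher genes were Rabggtb, its partner subunit (log2 fold change 0.41, SE 0.056, edgeR FDR 5.0e-05), and Coq2, a ubiquinone synthesis enzyme (0.47, SE 0.064, edgeR FDR 5.4e-05), both named after their values were seen.

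The enzymes that commit farnesyl diphosphate to sterols and close the ring were lower. Fdft1, squalene synthase, had 141, 169, 155 and 146 CPM in Mock and 64, 55.5, 65.7 and 65 CPM in GC7 (log2 fold change -1.29, SE 0.076, edgeR FDR 4.4e-08). Its exons overlap those of Ctsb on the opposite strand over 774 bases, 18.3% of its exon length, and the strand setting of the counting is not given in the sources used here. Sqle, squalene epoxidase, had between 177 and 189 CPM in Mock and between 92.6 and 105 CPM in GC7 (-0.85, SE 0.061, edgeR FDR 2.0e-07). Lss, lanosterol synthase, had 166, 153, 185 and 177 CPM in Mock and 64.5, 58.5, 50.6 and 60.9 CPM in GC7, a 2.90-fold reduction (-1.54, SE 0.085, edgeR FDR 2.4e-08). None of these 3 genes overlapped between the groups.

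After lanosterol all 8 members were lower, with a median log2 fold change of -0.76, but 1 of them by more than 2-fold. That gene was Nsdhl, a sterol dehydrogenase of C4 demethylation on chrX, with 58, 54.2, 53.2 and 54.9 CPM in Mock and 25.6, 23.7, 22.8 and 25.1 CPM in GC7 (-1.18, SE 0.066, edgeR FDR 2.7e-08). Cyp51, the lanosterol demethylase, fell from 312 ± 6.87 to 173 ± 21.3 CPM (SD, n = 4, -0.85, SE 0.082, edgeR FDR 2.9e-06). Dhcr7, which reduces 7-dehydrocholesterol to cholesterol, fell from 119.6 ± 5.83 to 63.4 ± 8.37 CPM (-0.91, SE 0.089, edgeR FDR 3.1e-06). In both, the GC7 libraries varied more than the Mock libraries but stayed below them.

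The other genes after lanosterol moved less or were less abundant. Tm7sf2, a sterol reductase, had between 21.6 and 27.9 CPM in Mock and between 10.3 and 13.8 CPM in GC7 (log2 fold change -0.95, SE 0.11, edgeR FDR 1.3e-05), and 12.1% of its exon length is shared with Vps51 on the same strand. Msmo1, the C4 methyl oxidase, had between 113 and 125 CPM in Mock and between 70.9 and 78.9 CPM in GC7 (-0.66, SE 0.060). Sc5d, the sterol desaturase, had between 77.6 and 84 CPM in Mock and between 56.5 and 58.8 CPM in GC7 (-0.50, SE 0.056), the smallest spread of GC7 libraries relative to their mean among these 8 genes. Ebp, the sterol isomerase, had between 45.5 and 59.8 CPM in Mock and between 34.4 and 40 CPM in GC7 (-0.45, SE 0.089, edgeR FDR 8.3e-04). Hsd17b7, a ketosteroid reductase, had 45.1, 31.3, 42.3 and 36.4 CPM in Mock and 31.6, 27.4, 27.4 and 28.8 CPM in GC7. Its groups overlapped (log2 fold change -0.43, SE 0.11, edgeR FDR 0.00438), and it lost the call without Mock replicate 1 or 3 or without GC7 replicate 2, 3 or 4, with edgeR FDR between 0.013 and 0.0159.

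**Figure D3:**
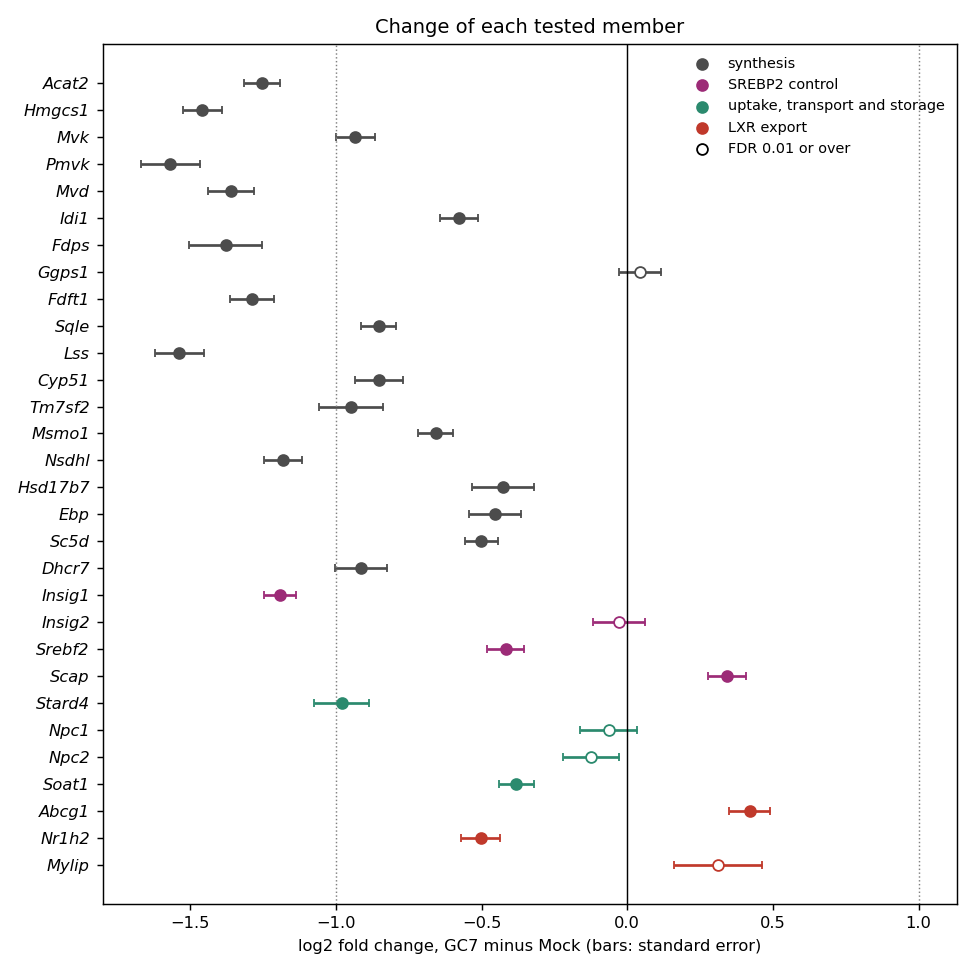
Log2 fold change (GC7 minus Mock) of each of the 30 tested members with its standard error, coloured by role, with open points for members not called. The dotted lines mark a 2-fold change, and the 9 members past it lie on the left side.

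The genes that control SREBP2 moved in different directions: Insig1 and Srebf2 were lower, Scap was higher and Insig2 was not called. Insig1, which retains SCAP in the endoplasmic reticulum and is itself a well known SREBP target, had 205, 196, 208 and 211 CPM in Mock and 90.3, 88.4, 92.2 and 88.4 CPM in GC7. It fell 2.28-fold (log2 fold change -1.19, SE 0.055, edgeR FDR 4.7e-09), and both groups were tight, with SDs of 6.74 and 1.81 CPM. Insig2, the second INSIG protein, had 22.5, 26.1, 28.8 and 23.9 CPM in Mock and 23.2, 23.8, 26.7 and 25.9 CPM in GC7. The groups overlapped, with a log2 fold change of -0.027 (95% interval -0.20 to 0.15, edgeR FDR 0.807).

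Srebf2, which encodes SREBP2, was abundant in both groups, with 598, 548, 600.1 and 610.3 CPM in Mock and 458, 445, 412 and 449 CPM in GC7. Every GC7 library was lower, by a log2 fold change of -0.42 (SE 0.064, edgeR FDR 1.3e-04), to 74.9% of the Mock level. Scap, the escort protein, had 96.7, 100.4, 89.4 and 99.6 CPM in Mock and 128, 119, 113 and 128 CPM in GC7. All GC7 values of Scap exceeded all Mock values, with an increase of 0.34 (SE 0.064, edgeR FDR 6.5e-04). An annotated transcript on the opposite strand, 5830462I19Rik, overlaps 13.2% of the exon length of Scap and had mean counts of 15 in Mock and 24 in GC7 libraries.

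Of 8 other genes of SREBP control, 1 was lower (23.5% of all tested genes were), 4 were higher (23.0% of all tested genes) and 3 were not called. Those named here were named after their values were seen. The lower gene was Srebf1, which encodes SREBP1, from 199 ± 6.52 to 122 ± 10.3 CPM (SD, n = 4 each, log2 fold change -0.70, SE 0.069, edgeR FDR 3.3e-06). The higher genes included Mbtps2, the protease that makes the second cut of SREBP (0.41, SE 0.094, edgeR FDR 0.00255), and Erlin1, an endoplasmic reticulum membrane protein (0.34, SE 0.080, edgeR FDR 0.00314). Erlin1 lost the call without Mock replicate 4 (edgeR FDR 0.0138).

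Among the genes that move and store cholesterol inside the cell, Stard4 and Soat1 were lower, and the lysosomal pair Npc1 and Npc2 was not called. Stard4, a cytosolic sterol carrier, had 255, 193, 261 and 252 CPM in Mock and 132, 126, 112 and 118 CPM in GC7. Mock replicate 2 lay below the other Mock libraries but above all GC7 libraries. The log2 fold change was -0.98 (SE 0.095, edgeR FDR 3.0e-06), and without Mock replicate 2 it was -1.08. Soat1, which esterifies cholesterol for storage, had 51.8, 51.1, 55.1 and 55.3 CPM in Mock and 42.2, 39.5, 40.5 and 41.5 CPM in GC7 (-0.38, SE 0.060, edgeR FDR 1.7e-04), without overlap.

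Npc1 and Npc2 encode the proteins that pass cholesterol out of lysosomes. Npc1 had 104, 73.7, 106 and 99.1 CPM in Mock and 92.2, 92.3, 92.1 and 88.7 CPM in GC7. Here 1 Mock library, replicate 2, lay below all others, and the log2 fold change was -0.064 (95% interval -0.26 to 0.13, edgeR FDR 0.59). Without Mock replicate 2 the change was -0.18, with an edgeR FDR of 0.00555, so this library decided the call. The exons of Npc1 share 511 bases, 4.5% of their length, with Rmc1 on the opposite strand. Rmc1 had mean counts of 777.2 in Mock and 574.0 in GC7 libraries. Npc2 had 197, 258, 220.5 and 215 CPM in Mock and 186, 186, 232 and 214 CPM in GC7, which overlap (-0.12, 95% interval -0.31 to 0.061, edgeR FDR 0.277).

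A further 10 genes act in uptake, transport and sterol esters. Of these, 4 were lower (23.5% of all tested genes were), 3 were higher (23.0% of all tested genes) and 3 were not called. Those named were again named after their values were seen. The lower genes included Scarb1, a receptor for HDL, which fell from 78.3 ± 0.742 to 48.6 ± 2.75 CPM (SD, n = 4 each, log2 fold change -0.69, SE 0.060, edgeR FDR 1.3e-06). Gramd1a, a sterol transfer protein, also fell, by 0.25 on the log2 scale (edgeR FDR 0.0068), and lost the call without Mock replicate 3 or 4 or without GC7 replicate 1, 2 or 4 (edgeR FDR between 0.0139 and 0.0308). The higher genes were Gramd1b, of the same family (0.66, SE 0.077, edgeR FDR 1.5e-05), Lipa, the lysosomal lipase that frees cholesterol from esters (0.44, SE 0.062, edgeR FDR 7.4e-05), and Nceh1, a cholesteryl ester hydrolase (0.34, edgeR FDR 0.00969). Nceh1 lost the call without any of Mock replicates 1 to 3 and without any GC7 library (edgeR FDR between 0.0101 and 0.0333).

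The genes of the LXR arm did not share a direction: Nr1h2 was lower, Abcg1 was higher, Mylip was not called and Abca1 did not pass the filter on low counts. Abcg1 was thus the only exporter among them that was tested. Nr1h2, which encodes LXR beta, had 106, 126, 109.7 and 119 CPM in Mock and 77.4, 80.5, 82.8 and 84.3 CPM in GC7. All GC7 libraries were lower (log2 fold change -0.50, SE 0.068, edgeR FDR 4.7e-05). Abcg1, an exporter of cholesterol to HDL and a known LXR target, had 29.6, 32.8, 34.6 and 30.7 CPM in Mock and 40.9, 43.5, 44.2 and 42.3 CPM in GC7. All GC7 libraries were higher, by 1.34-fold (0.42, SE 0.069, edgeR FDR 2.3e-04).

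Abca1, the exporter of cholesterol to lipid-poor apolipoproteins and also a known LXR target, had 3.13, 1.53, 2.47 and 2.66 CPM in Mock and 2.29, 2.37, 3.35 and 2.21 CPM in GC7. These values come from between 36 and 61 counts per library, with means of 2.45 ± 0.67 and 2.55 ± 0.533 CPM (SD, n = 4 each), and the groups overlapped. Without the filter on low counts the log2 fold change of Abca1 was 0.064 (SE 0.206, edgeR FDR 0.851). Mylip, which encodes the ubiquitin ligase IDOL and is a known LXR target, had 4.82, 6.55, 4.38 and 6.06 CPM in Mock and 5.79, 6.51, 7.48 and 7.35 CPM in GC7. The groups overlapped (log2 fold change 0.31, SE 0.15, unadjusted edgeR p 0.0594, FDR 0.0915). Its normal 95% interval, 0.018 to 0.61, is narrower than the test allows and is not read as a change.

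Macrophages express Abca1 and Abcg1 strongly, and their 5 markers were therefore read beside these genes. Summed, the markers reached at most 0.256 CPM in Mock and 0.558 CPM in GC7 libraries, from between 0 and 10 counts. Marco was at 0 in all libraries, Csf1r, Adgre1 and Cd14 had 2 counts or fewer, and Lyz2 had 7 or fewer. Of 8 other genes of the LXR axis, 5 were tested. Among these 5, 2 were lower (23.5% of all tested genes were), none was higher (23.0% of all tested genes) and 3 were not called. The lower genes, named after their values were seen, were the transporter gene Abca7 (log2 fold change -0.47, SE 0.093, edgeR FDR 9.8e-04) and Lpcat3, a phospholipid remodelling enzyme (-0.71, SE 0.079, edgeR FDR 9.7e-06). Nr1h3, which encodes LXR alpha, was too low to be tested, with at most 1.1 CPM in any library.

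**Figure D4:**
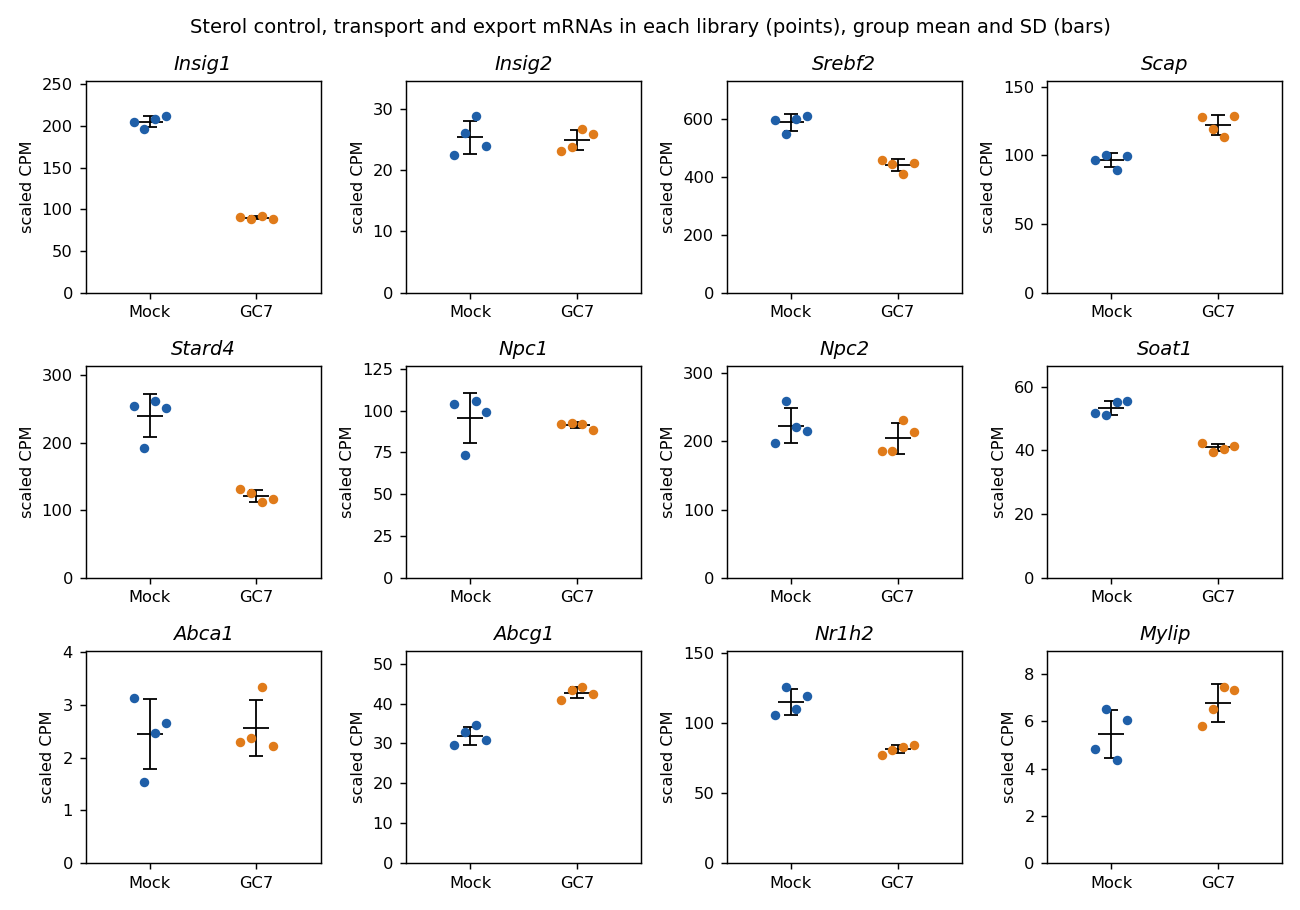
Scaled CPM of the 12 members outside synthesis, with 1 point per library (4 Mock, 4 GC7), the group mean and the SD, on axes that start at 0. Insig1, Srebf2, Stard4, Soat1 and Nr1h2 are lower in every GC7 library, Scap and Abcg1 are higher in every one, and the remaining 5 overlap.

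Levels per kilobase of annotated exon compare genes only roughly, because the length covers all annotated exons of a gene and not the transcript expressed. On this scale Hmgcs1 had the highest level of the 31 members in Mock cells, with a mean of 105 CPM per kb. Srebf2 followed at 82, and Mvd and Cyp51 lay side by side at 70.9 and 70.8, before Insig1 at 66.3. In GC7 cells the order was different: Srebf2 was highest at 61.4 CPM per kb, while Hmgcs1 was at 38.3, close to Cyp51 at 39.2. Abca1 had the lowest level in both groups, 0.236 CPM per kb in Mock and 0.247 in GC7. These levels are means of 4 libraries per group.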

How the data were processed

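RNA was sequenced from 8 cultures of OT-1 CD8+ T cells, 4 Mock and 4 GC7, grouped by the sample labels. The authors trimmed the reads with cutadapt, aligned them to GRCm38 with STAR and deposited raw counts per Ensembl gene from featureCounts. Strand setting and handling of multiply mapped reads are not given in the sources used here.

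Genes with CPM above 3 in at least 4 libraries were tested with edgeR (version 4.0.16, R version 4.3.3): TMM factors, a model of group alone, the quasi-likelihood test, and the Benjamini-Hochberg FDR. Intervals of 95% are unadjusted normal intervals from the standard error. They are narrower than the quasi-likelihood test allows, because they leave out its limited degrees of freedom. A call is an FDR under 0.01. The alternatives, 17 in all, included DESeq2 (version 1.42.0), limma-voom (limma version 3.58.1), a replicate block and each library left out. The test was checked on simulated counts. The filter corresponds to between 52.6 and 75.9 counts, depending on the library. The authors describe the libraries as 4 biological replicates per group, and nothing in the labels says whether they came from separate animals. The p-values compare the group difference with the spread between these libraries.

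Copies are other annotated genes matching a member over at least 600 bases at 90% identity or more (BLAST version 2.17.0), a length chosen after the data were seen. Exons are from GENCODE M21. Members and lists were chosen with earlier results of these data known. All 31 members are named, and other genes by a call of more than 2-fold or where a member's result turns on them. The exceptions are marked where they occur, and single cell type markers were named after their values were seen. Some genes of the pathway lists are not reported here.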

Additional observations from a re-analysis of the deposited data

Results flagged for a closer look

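In each group of 4 libraries, the gap between the highest or lowest library and its nearest neighbour was divided by the range of the group (Dixon's ratio, against the 95% critical value for 4 samples). Of 62 groups checked, 7 passed it, where chance alone gives about 1 in 20, or 3.1. The groups come from the same 8 libraries and are not independent, so 7 against 3.1 was not tested. GC7 replicate 4 was high for Acat2 (ratio 0.938) and low for Npc1 (0.953). GC7 replicate 2 was low for Mvd (0.835) and for Fdft1 (0.836), which leaves both genes well below the Mock values. GC7 replicate 1 was low for Tm7sf2 (0.91), and without it the log2 fold change of Tm7sf2 was -0.86 and still called. Mock replicate 2 was low for Stard4 (0.857). GC7 replicate 3 was high for Abca1 (0.865), a gene that was not tested. Beyond these flags, Mock replicate 2 was the highest or the lowest Mock library for most members. It was highest for Pmvk (109 CPM, others 81.8 to 89.5) and lowest for Npc1 (73.7, others 99.1 to 106) and Lss (153, others 166 to 185). Its TMM factor, 0.935, was the lowest of the 8 libraries. Without it 24 members were lower, 2 were higher and 10 were reduced by more than 2-fold. The cause was not tested.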

How the results depend on the processing

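Of the 30 tested members, 27 kept their direction and their call under all 17 alternatives, and 28 never changed direction. Scaling by library totals moved the median log2 fold change of all tested genes from 0.018 to 0.11. The median over the members became -0.66 with library totals, -0.66 without a filter and -0.67 with filterByExpr, the last 2 of which also include Abca1. With 1 library left out, 22 to 24 members were lower, 2 were higher, 9 or 10 were reduced by more than 2-fold, 0 were increased, and the median lay between -0.78 and -0.71. With library totals, Hsd17b7 lost its call (edgeR FDR 0.0263), and the changes of Insig2 (0.067) and Npc1 (0.026), neither of them called, turned positive. Over the fits with 1 library left out, Insig2 lay between -0.090 and 0.030 and Npc1 between -0.18 and -0.022. The cause was not tested. Summing near-identical copies, an alternative added after the data were seen, changed no call of a member.

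The replicate numbers were not taken as pairing: the correlation of deviations between same-numbered libraries was above 0.1 in 2 of 4 pairs (between -0.18 and 0.27), and the best match of Mock replicate 2 was GC7 replicate 4 (0.42). With the replicate block, 23 members were lower, 2 were higher and 9 were reduced by more than 2-fold, and no member changed its call, while Gramd1a (edgeR FDR 0.0162) and Nceh1 (0.0196) lost theirs. Outside the members, Gramd1a also lost its call with library totals (edgeR FDR 0.0417) and Nceh1 with RLE factors (0.0103) and filterByExpr (0.01).

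Abca1, which the filter left out, was not called without a filter (log2 fold change 0.064, edgeR FDR 0.851) or with filterByExpr (0.056, FDR 0.853).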
